A study of Mus musculus with 2 samples.

Results

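The amino acid transporters of the Slc1, Slc3, Slc6, Slc7, Slc36, Slc38 and Slc43 families were taken from the expression tables by gene symbol, a rule that uses no measured value. The symbol had to be one of these 7 family names followed by the letter a, a number and, in some genes, a further letter, and 52 of the 26082 listed genes met this rule. The data were 2 RNA-seq libraries from fibro-adipogenic progenitors (FAPs), mesenchymal cells of muscle able to become fibroblasts or adipocytes. The primary FAPs were sorted from hind limb muscle of wild-type mice, and both cultures were kept under the same adipogenic induction with IBMX, dexamethasone and insulin. One culture had been transfected with a TGFBR3 overexpression plasmid and the other with the empty vector, so that the design asks what forced expression of TGFBR3, a co-receptor for TGF-beta ligands, does to FAPs entering adipogenesis. The age of the mice was not given in the labels, and the labels do not say whether both cultures came from the same animals. Each group held 1 library, so no difference below has a replicate check, no p-value is given, and every interval covers counting error only.

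Amino acid transporters move amino acids across the plasma membrane and across the membranes of lysosomes and other compartments. Several Slc7 proteins reach the cell surface only as the light chain of a pair whose heavy chain is the Slc3a2 protein. Sodium-coupled carriers of the Slc1 and Slc38 families load cells with small neutral amino acids such as glutamine, which exchangers such as the Slc7a5 protein can then trade for leucine and other large neutral amino acids. When amino acids run short or the endoplasmic reticulum is under stress, the transcription factor ATF4 is known to switch on a set of these genes, and carriers at the lysosome take part in the sensing of amino acids by the kinase complex mTORC1. In fat cells, branched-chain amino acids taken up by such carriers are a known source of carbon for lipid.

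The response element bound by ATF4 with C/EBP partners is the short sequence that ties several of these genes to amino acid shortage, and its matches are shown because the largest differences below lay among genes of this set. RefSeq promoter windows of build GRCm38.p6, reaching from 250 bases before to 50 bases after each start, were matched to 37 of the 52 transporters, some with several starts. A gene was counted if any of its windows held a match. The 37 transporters had 57 windows, and all 27025 gene symbols had 32851. Shares by gene, here and for the second element below, are not adjusted for the number of windows. The letters TGATGNAA, read on both strands, occurred in the windows of 3 of these 37 genes (8.11%), Slc7a11, Slc1a4 and Slc7a7, against 4.51% of all 27025 gene symbols in the table. In Slc7a11 a pair of matches faced each other, with first bases at −66 and −47 from the start. In Slc1a4 the match began at −4, and in Slc7a7 at −1, with a further match at −141. The stretches around these matches are given 5′ to 3′ on the strand of the gene, with the matching letters in capitals, for Slc7a11 (chr3:50443613-50443700, minus strand), Slc1a4 (chr11:20332684-20332757, minus strand) and Slc7a7 (chr14:54417915-54417985, minus strand).
Slc7a11: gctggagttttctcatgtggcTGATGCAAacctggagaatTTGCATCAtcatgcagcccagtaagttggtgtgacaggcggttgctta
Slc1a4: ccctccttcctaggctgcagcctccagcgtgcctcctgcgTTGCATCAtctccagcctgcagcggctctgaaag
Slc7a7: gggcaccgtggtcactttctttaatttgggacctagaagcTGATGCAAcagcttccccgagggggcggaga
The Slc3a2 window held no match. The windows of Slc38a2, Slc7a1 and Slc6a9, also on the list of ATF4-linked transporters used below, held none either. Slc7a5 and Slc1a5 had no entry. The core of the antioxidant response element, TGACNNNGC on either strand, lay in the windows of 8 of the 37 genes (21.6%), against 14.0% of all symbols, and the Slc7a11 window was not among the 8. These matches describe letters in the reference sequence and are not measured binding. On the scale given below, the genes with a match had log2 ratios of 0.05 (Slc1a4), 0.08 (Slc7a7) and 0.67 (Slc7a11). The value of Slc7a11 was 0.22 once the trend over base composition was removed. Slc7a7 was not on the list of ATF4-linked transporters used below. Any link between the matches and the differences was not tested.

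The count table held 62321027 counts for the library labelled TGFBR3 overexpression (from here the TGFBR3-labelled library) and 83779203 for that labelled vector control (the vector-labelled library). Expression levels were the deposited FPKM values, that is, fragment counts scaled by library size and by gene length. For transporters with a mean FPKM of at least 1, and for Slc38a1, this length matched the merged exon length of all annotated transcripts. Levels of different genes therefore also depend on how much annotated sequence each gene holds. Slc38a1, with 17236 bases, had 1136 counts and 0.97 FPKM in the TGFBR3-labelled library, while Slc1a6, with 2152 bases, had 910 counts and 6.23. Tgfbr3 itself (ENSMUSG00000029287) was not raised in the TGFBR3-labelled library. Its FPKM was 36.87 there and 35.13 in the vector-labelled library, with 16372 and 21245 counts. The data do not tell whether transcripts from the plasmid would be counted under this gene, and no other check of the labels was made here. The paper describes real-time PCR of TGFBR3 after plasmid transfection, without stating whether it used these cultures. Every direction below rests on the labels, so the libraries are called by their labels throughout. Differences are given as the log2 ratio of FPKM + 1, TGFBR3 overexpression over vector control, which understates the change of low genes, for genes whose FPKM averaged at least 1 over both libraries (the level filter), and each bracketed range is the 95% interval from the counts by the exact Clopper-Pearson method. Among genes listed at 1 FPKM or more in each library, the median ratio was 0.13 on this scale, and directions below are also read against that shift. The ratio also followed base composition, with a median of 0.46 in the bin of genes poorest in G and C (40.1%) and −0.25 in the richest bin (60.9%), so values with this trend removed are given beside the larger differences it moves. Among FAP markers, Pdgfra, Ly6a, Cd34, Dcn, Col1a1 and Col3a1 were present in both libraries, while Lum, Dpp4 and Pi16 stayed at or under 0.27 FPKM. Lists of macrophage, muscle and endothelial markers summed to at most 2.49 FPKM in either library.

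Of the 52 transporters, 23 had a mean FPKM of at least 1 and 29 lay under it, of which 5 had no counts in either library. Summed over all 52 genes, FPKM was 336.73 in the TGFBR3-labelled library and 318.17 in the vector-labelled library, a ratio of 1.06. These genes took 129453 counts (0.208% of the library) and 170172 counts (0.203%). The same 6 genes led in both libraries and made up 66.2% and 69.2% of the summed FPKM: Slc38a10, Slc6a8, Slc3a2, Slc1a5, Slc6a6 and Slc43a3. Of the 52 genes, 48 stayed in the same range of level (at least 10 FPKM, 1 to 10, 0.1 to 1, or under 0.1) in both. By FPKM, a small number of genes thus held most of the transporter RNA. No share of all genes staying in the same range is given, so the count of 48 is not set against a background. Transporter protein and uptake were not measured here.

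**Figure D1:**
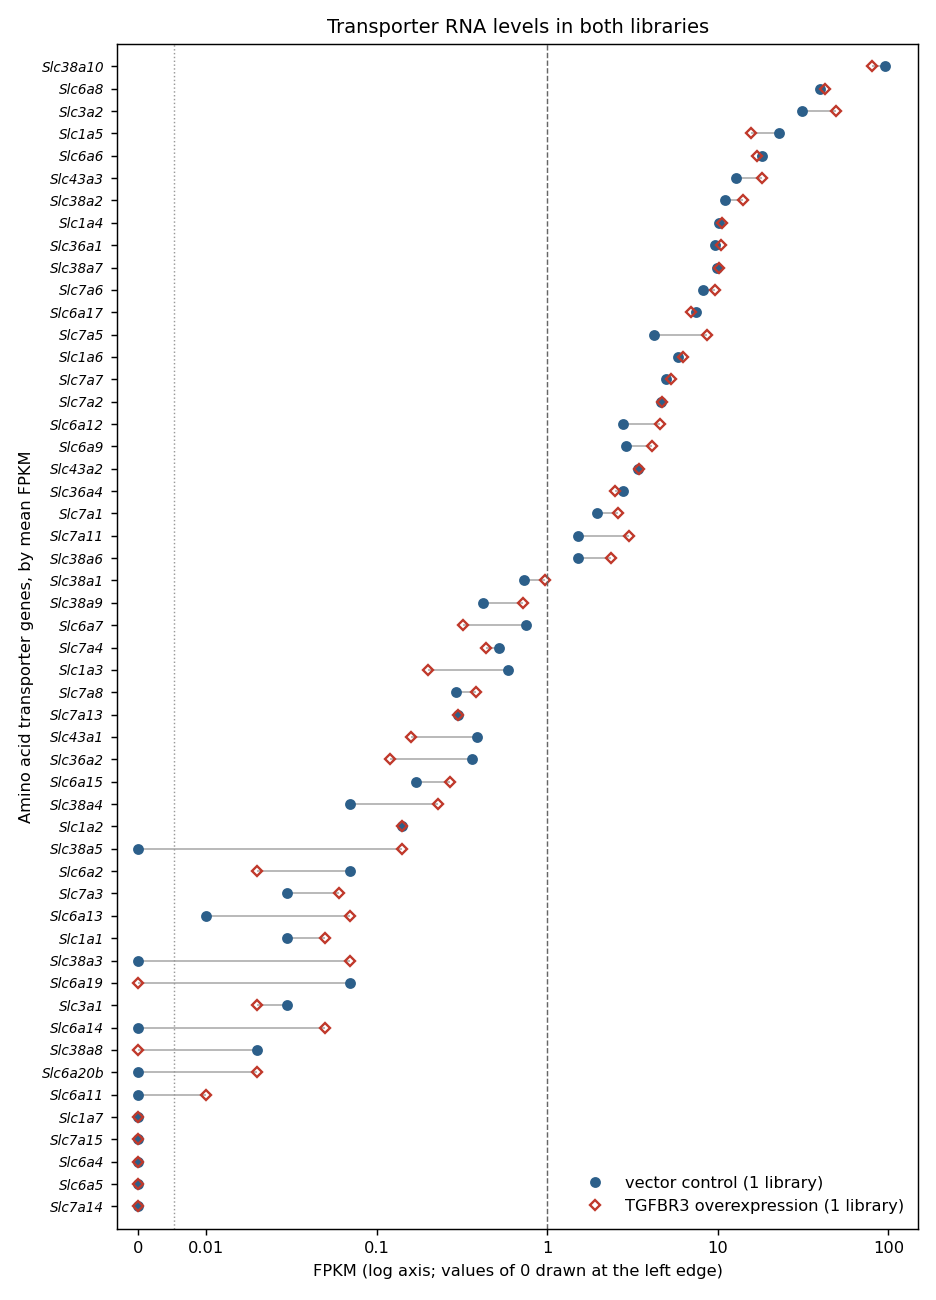
FPKM of the 52 amino acid transporter genes, ordered by mean level and drawn on a log axis, with 1 point per library (TGFBR3 overexpression and vector control) and no error bars because each group is 1 library. The dashed line marks 1 FPKM, and points left of the dotted line are genes listed at 0. Slc38a10 stands highest in both libraries, and most pairs of points lie close together.

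Slc38a10, a widely expressed member of the Slc38 family whose transport role is less well characterised, had the highest level in both libraries (chr11:120103960-120151346, minus strand, build mm10). Its FPKM was 79.80 in the TGFBR3-labelled library and 95.54 in the vector-labelled library, from 34767 and 56689 counts. It made up 23.7% and 30.0% of the summed FPKM and was lower in the first library, with a log2 ratio of −0.26 (−0.28 to −0.24), or −0.13 with the GC trend removed. Slc6a8 (chrX:73673150-73682502, plus strand), the creatine transporter, stood at 42.63 and 39.58 FPKM. Slc6a6, which carries taurine, stood at 17.04 and 18.08 FPKM. Their values lay under the global shift, with log2 ratios of 0.10 (0.07 to 0.14) and −0.08 (−0.12 to −0.05). Slc43a3, known as a purine base transporter grouped with amino acid carriers by sequence, was higher in the TGFBR3-labelled library, at 18.10 against 12.81 FPKM, with a log2 ratio of 0.47 (0.42 to 0.52) and 0.34 with the GC trend removed.

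No transporter with a mean FPKM of at least 1 differed by 2-fold between the libraries. The count was 0 of 23 in the higher direction and 0 of 23 in the lower, where 3.14% and 1.03% of the 11213 genes tested passed. At 1.5-fold, 3 of the 23 (13.0%) were higher in the TGFBR3-labelled library, Slc3a2, Slc7a5 and Slc7a11, against a background of 13.3%, and 0 were lower against 4.91%. The share of transporters at 1.5-fold was thus near that of all genes. The median log2 ratio was 0.10 for the transporters and 0.14 for all genes tested. Of the 23, 18 had a ratio above 0 (78.3%) and 5 below, where 63.1% of all genes tested lay above 0. Read against the shift of 0.13, however, the split was 10 above and 13 below, where 51.3% of all genes tested lay above it. On the plain ratio of FPKM, among genes with more than 3 counts in both libraries, Slc7a5 alone of the 23 passed 2-fold (4.35%, background 6.42% higher), and none was lower (background 1.79%).

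**Figure D2:**
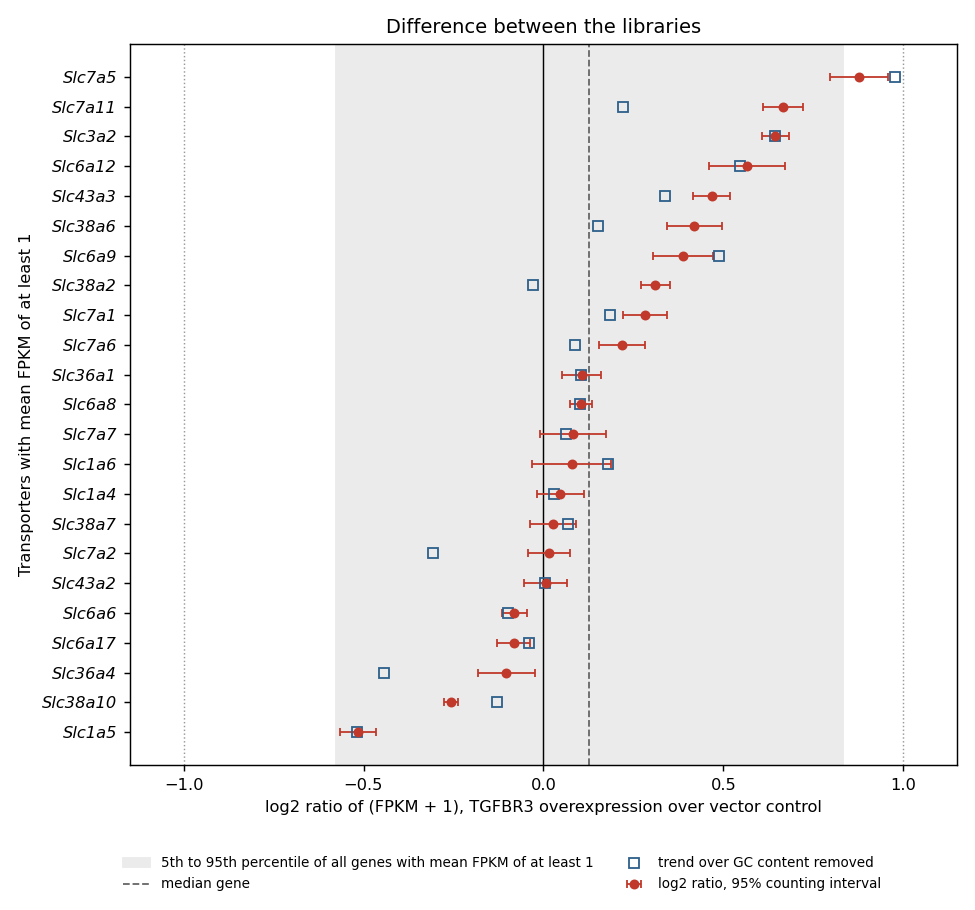
Log2 ratio of FPKM + 1, TGFBR3 overexpression over vector control, for the 23 transporters with a mean FPKM of at least 1. Points with bars are the ratio with its 95% counting interval, open squares the ratio after the trend over GC content was removed, the shaded band the 5th to 95th percentile of all genes tested (−0.58 to 0.83), the dashed line the median gene at 0.13, and the dotted lines 2-fold. Slc7a5 is the only transporter outside the band, and Slc1a5 lies at the other end.

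The 3 genes at 1.5-fold encode both chains of a pair of well-known exchangers. Slc7a5 (chr8:121881150-121907694, minus strand) encodes LAT1, the light chain that exchanges large neutral amino acids such as leucine. Its FPKM was 8.64 in the TGFBR3-labelled library and 4.25 in the vector-labelled library, from 2175 and 1459 counts. This was the largest difference among the 23 transporters, with a log2 ratio of 0.88 (0.80 to 0.96) and a plain FPKM ratio of 2.03. With the GC trend removed the value was 0.98, and after centring on the median gene Slc7a5 remained the only transporter at least 1.5-fold higher. Slc3a2 (chr19:8706882-8723369, minus strand) encodes the heavy chain, also called 4F2hc or CD98. Its FPKM was 49.47 against 31.29, with a log2 ratio of 0.64 (0.61 to 0.68) that was the same with the GC trend removed. Slc7a11 (chr3:49892526-50443614, minus strand) encodes xCT, the light chain that brings in cystine in exchange for glutamate. It stood at 3.00 against 1.52 FPKM, with a log2 ratio of 0.67 (0.61 to 0.72). Its transcripts are poor in G and C (42.1%), and with the GC trend removed its value was 0.22, under the 1.5-fold mark. The higher level of Slc7a11 therefore moved with base composition, and the part of base composition in it was not tested.

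**Figure D3:**
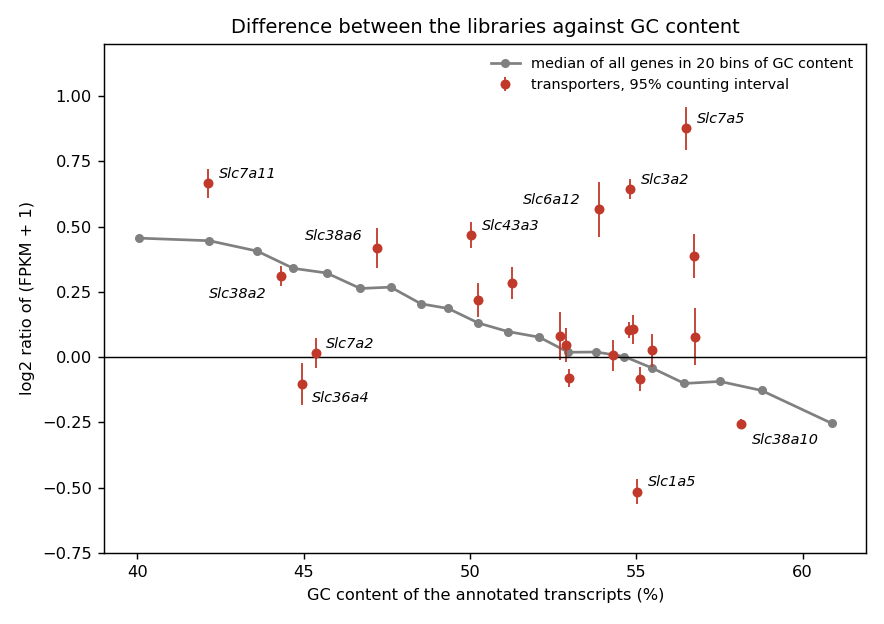
Log2 ratio of FPKM + 1 (TGFBR3 overexpression over vector control) against the GC content of the annotated transcripts in percent. Red points are the 23 transporters with 95% counting intervals, and the grey line joins the medians of all genes tested in 20 bins of GC content. Slc7a11 lies at 42.1% GC, where the median of all genes is also well above 0, while Slc7a5 and Slc3a2 lie at 56.5% and 54.8%, where it is near or below 0.

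Seen as a set, the light chains that pair with Slc3a2 (Slc7a5, Slc7a6, Slc7a7, Slc7a8 and Slc7a11) summed to 27.02 FPKM in the TGFBR3-labelled library and 19.21 in the vector-labelled library. The heavy chain stood at 1.83 and 1.63 times their sum in FPKM. This excess, and the shares below, rest on the merged exon length of each gene. Slc7a6 (chr8:106168857-106198706, plus strand), which encodes a light chain that exchanges cationic for neutral amino acids, gave the largest share of the light chain sum, 35.8% and 42.6%. The share of Slc7a5 was 32.0% against 22.1%, and that of Slc7a11 was 11.1% against 7.91%. Slc7a7, another cationic and neutral exchanger, gave 19.7% and 25.9%, and Slc7a8, the LAT2 light chain, gave 1.41% and 1.51%. Slc7a5 stood at 0.893 (0.844 to 0.944) of the FPKM of Slc7a6 in the TGFBR3-labelled library. In the vector-labelled library it stood at 0.520 (0.488 to 0.553). These intervals did not overlap, but they cover counting error of 1 library each. Such ratios need no scaling between libraries, but these genes have unequal GC content (56.5% and 50.2%). Slc7a6 itself was at 9.68 and 8.18 FPKM (log2 ratio 0.22, 0.15 to 0.28, or 0.09 with the GC trend removed) and Slc7a7 at 5.32 and 4.97 (0.08, −0.01 to 0.17). System L transporters and their heavy chain together made up 18.4% of the summed transporter FPKM against 12.5%. Slc3a2, which also pairs with light chains outside system L, alone made up 14.7% against 9.83%. The other system L member above the level filter, the uniporter Slc43a2, was at 3.44 and 3.42. Slc43a1, under the filter, was lower, at 0.16 against 0.39.

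**Figure D4:**
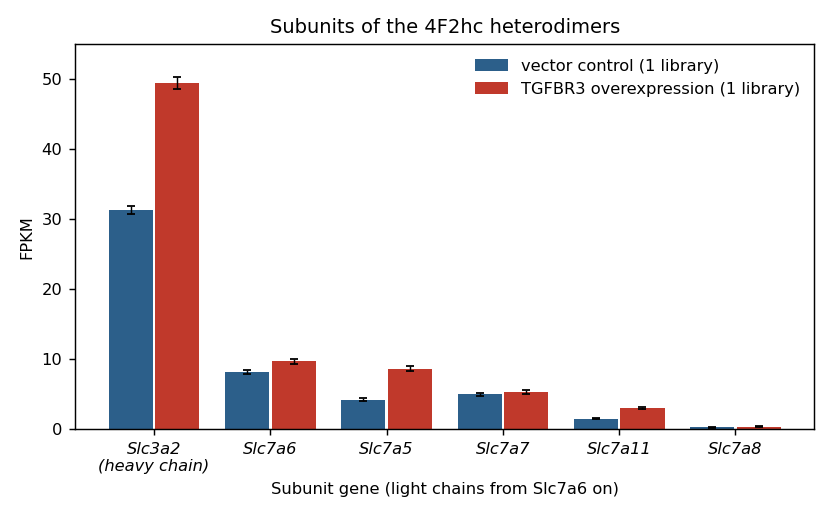
FPKM of the Slc3a2 heavy chain and of the light chains that pair with it, for the TGFBR3-labelled and vector-labelled libraries, with 1 library each and bars on each column for the exact 95% Poisson interval of its counts. Slc3a2 stands at 49.47 and 31.29, above the sum of the light chains of 27.02 and 19.21.

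Transporters of small neutral amino acids and glutamine differed among themselves in direction. Slc1a5 (chr7:16781340-16798274, plus strand) encodes ASCT2, a sodium-dependent exchanger that carries glutamine. Its FPKM was 15.72 in the TGFBR3-labelled library and 22.90 in the vector-labelled library, from 4457 and 8832 counts. This was the lowest log2 ratio of the 23, −0.52 (−0.57 to −0.47), and it was the same with the GC trend removed. Slc38a2 (chr15:96687392-96699730, minus strand), the SNAT2 carrier of system A that adapts to amino acid supply, was higher, at 13.96 against 11.06 FPKM. Its log2 ratio of 0.31 (0.27 to 0.35) became −0.03 with the GC trend removed. In consequence Slc1a5 stood at 1.13 (1.09 to 1.17) times the FPKM of Slc38a2 in one library and 2.07 (2.01 to 2.13) times in the other, a ratio between genes of unequal GC content. Slc1a4, the ASCT1 carrier of serine and alanine, was at 10.59 and 10.22 FPKM, with a log2 ratio of 0.05 (−0.02 to 0.11). Slc38a1, the SNAT1 carrier, lay just under the threshold of 1 at 0.97 and 0.73 FPKM.

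Among cationic amino acid transporters, Slc7a1 and Slc7a2 encode the carriers CAT1 and CAT2 of arginine and lysine. Slc7a2 was at 4.68 and 4.62 FPKM, and Slc7a1 at 2.60 and 1.96 with a log2 ratio of 0.28 (0.22 to 0.34), or 0.18 with the GC trend removed. With the GC trend removed the value of Slc7a2 went from 0.02 to −0.31. All 6 Slc7 genes above the level filter thus had a ratio above 0, where 63.1% of all genes tested did, but Slc7a2 and Slc7a7 lay under the global shift. With the trend over exon length removed, Slc7a1 (−0.05), Slc7a2 (−0.24) and Slc7a7 (−0.04) fell below 0.

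The 3 proton-coupled and lysosomal transporters above the level filter had log2 ratios from −0.10 to 0.11. Slc36a1, which carries small amino acids out of lysosomes and is known in mTORC1 signalling, was at 10.45 and 9.64 FPKM (log2 ratio 0.11, 0.05 to 0.16). Slc38a7, a lysosomal glutamine and asparagine carrier, was at 10.14 and 9.94. Slc36a4 was at 2.51 and 2.77, with a log2 ratio of −0.10 (−0.18 to −0.02) and −0.44 with the GC trend removed. Slc38a9, the arginine sensor of the lysosome, was lower in level, at 0.72 and 0.42 FPKM from 815 and 656 counts.

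Of the 15 Slc6 genes listed, 5 had a mean FPKM of at least 1, and Slc6 genes made up 22.6% of the summed FPKM in both libraries. Apart from Slc6a8 and Slc6a6, these were Slc6a17, Slc6a12 and Slc6a9. Slc6a12, which carries betaine and GABA, was higher in the TGFBR3-labelled library, at 4.58 against 2.77 FPKM, with a log2 ratio of 0.57 (0.46 to 0.67) and 0.55 with the GC trend removed. Slc6a9, the glycine carrier GlyT1, was at 4.09 against 2.89, with a log2 ratio of 0.39 (0.30 to 0.47), or 0.49 with the GC trend removed. However, 38.6% of the Slc6a9 exon bases overlap genes on the other strand, so its reads are uncertain. Slc6a17, a vesicular carrier of neutral amino acids in neurons, was at 6.93 and 7.40 FPKM. Slc38a6 was at 2.37 against 1.52 (0.42, 0.34 to 0.50), with 0.15 after removal of the GC trend, and 31.3% of its sequence in 31-base words is shared with other genes.

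Cystine and glutamate transporters other than Slc7a11 were low, with 1 exception. Slc1a6, the glutamate carrier EAAT4, was at 6.23 and 5.85 FPKM, from 910 and 1164 counts, with a log2 ratio of 0.08 (−0.03 to 0.19). Slc1a3, the glutamate carrier GLAST, was lower in the TGFBR3-labelled library, at 0.20 against 0.59 FPKM from 119 and 468 counts. Its plain log2 ratio was −1.53 (−1.83 to −1.24), or −1.94 with the GC trend removed. Slc1a2, the main glutamate carrier of astrocytes, was at 0.14 FPKM in both.

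Of the 29 transporters under a mean FPKM of 1, 17 had more than 3 counts in both libraries. On the plain ratio, 3 of the 17 passed 2-fold upward, where 24.9% of all such low genes did, and 5 passed it downward, against 8.23%. The 3 were Slc38a4, Slc6a13 and Slc7a3, and the 5 were Slc1a3, Slc36a2, Slc43a1, Slc6a7 and Slc6a2. Some of these names were picked after their values were seen. The interval lay wholly past 2-fold for Slc1a3 and for Slc38a4, the SNAT4 carrier. Slc38a4 was at 0.23 against 0.07 FPKM from 68 and 29 counts. Its plain log2 ratio was 1.68 (1.03 to 2.36), or 1.22 with the GC trend removed. Slc36a2, a proton-coupled carrier used as a marker of brown and beige adipocytes, was at 0.12 against 0.36 FPKM from 27 and 108 counts, with a plain log2 ratio of −1.56 (−2.22 to −0.94). The 9 adipocyte markers summed to 57.9 against 96.3 FPKM, and of the 7 above the level filter 5 had a ratio below 0, Adipoq (5.69 against 13.0) and Cfd (15.3 against 39.0) among them, and 2 above, Lpl and Pparg. None of the 9 was at 0, and their part in the value of Slc36a2 was not tested. In bulk RNA, fewer cells of a type and less RNA per cell cannot be told apart.

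A further 12 low transporters did not pass 3 counts in both libraries. Slc1a7, Slc7a15, Slc6a4, Slc6a5 and Slc7a14 had no counts in either. Slc38a3 had 25 counts in the TGFBR3-labelled library and 0 in the vector-labelled library, and Slc38a5 had 22 and 0. Both encode glutamine carriers of system N. Slc6a19, a neutral amino acid carrier of gut and kidney, had 0 and 35 counts. Of the remaining genes, Slc6a14 had 12 and 0 counts, Slc6a20b 10 and 0, Slc6a11 2 and 0, and Slc38a8 0 and 8. All of these levels were low and at least 1 library had no more than 3 counts, so no fold is given. The genes were named after their values were seen.

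ATF4-linked transporters were then set beside genes of the response itself, from lists chosen with earlier results of these data known. Of 9 such transporters, 8 had a mean FPKM of at least 1, of which 7 had a ratio above 0 and 1, Slc1a5, below, where 63.1% of all genes tested had a ratio above 0. Their median log2 ratio was 0.35, against 0.14 for all genes, and 0.20 with the GC trend removed. Of 12 regulators of the response tested, 2 were at least 2-fold higher and 0 lower, against 3.14% and 1.03% of all genes tested. Ddit3, the stress transcription factor CHOP, was at 115.95 against 17.52 FPKM, a log2 ratio of 2.66 (2.60 to 2.72). Nupr1, a stress-induced cofactor, was at 63.24 against 26.38. Atf4 itself was at 62.71 and 61.79 FPKM, a log2 ratio of 0.02. Cebpb, a C/EBP factor of early adipogenesis, was lower, at 89.41 against 160.05 (−0.83, or −0.58 with the GC trend removed). Vldlr was higher (0.67, or 0.40 with the GC trend removed). Eif2ak4, which encodes the amino acid sensing kinase GCN2, was also higher (0.57, or 0.44 with the GC trend removed). None of the 8 ATF4-linked transporters above the level filter passed 2-fold on the same FPKM + 1 scale. On the plain ratio Slc7a5 stood at 2.03 and Slc7a11 at 1.97. The level of ATF4 protein was not measured here, and the part of ATF4 in these values was not tested.

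Of 12 enzymes of amino acid synthesis tested, 0 were at least 2-fold higher and 1 was lower, against 3.14% and 1.03% of all genes. The lower one was Pycr1, which makes proline, at 2.35 against 8.04 FPKM and a log2 ratio of −1.43 (−1.52 to −1.34). Phgdh, the first enzyme of serine synthesis, was higher (0.47, or 0.57 with the GC trend removed). Asns, which makes asparagine, was also higher (0.43, or 0.25 with the GC trend removed). Glul, which makes glutamine, was lower (−0.46, or −0.59 with the GC trend removed). Of 19 genes of amino acid sensing by mTORC1, none passed 2-fold in either direction, and 12 had a ratio above 0 and 7 below. Their median log2 ratio was 0.10, against 0.14 for all genes tested, of which 63.1% had a ratio above 0. The split by sign was thus near that of all genes, while with the GC trend removed the median of the 19 genes was −0.15. The Ragulator subunits Lamtor4 (−0.69), Lamtor2 (−0.56) and Lamtor1 (−0.51) were lower, while the other Ragulator subunits, Lamtor5 and Lamtor3, picked after their values were seen, had ratios of 0.22 and 0.04, or 0.02 and −0.22 with the GC trend removed. The GTPases Rraga (0.43) and Rheb (0.41) were higher, at 0.23 and 0.15 with the GC trend removed. Of 9 amino acid carriers outside the 7 families, 1 was at least 2-fold higher and 0 were lower, against 3.14% and 1.03% of all genes. The higher one was Slc15a3, a lysosomal carrier of histidine and small peptides, at 3.73 against 0.87 FPKM. Its log2 ratio was 1.34, or 1.43 with the GC trend removed. The mitochondrial carriers Slc25a15 (0.48), Slc25a12 (−0.38) and Slc25a38 (−0.28) and the lysosomal Slc15a4 (0.27) made up the next largest differences of that list. With the GC trend removed, Slc25a15 came to 0.28, Slc25a12 to −0.59 and Slc25a38 to −0.18.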

How the data were processed

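Total RNA from 2 FAP cultures was sequenced, 1 library per group. The submitters' processing notes name cutadapt 1.9, HISAT2 2.2.1, StringTie 2.1.6 and build mm10, whereas the study's methods name STAR and FeatureCounts, so the counter and its use of strand are uncertain. The authors deposited raw counts per gene and FPKM values per gene, given to 2 decimals. For all 23 transporters with a mean FPKM of at least 1, FPKM lay within 1% of the value computed from the counts and the merged exon length in GENCODE M21. Genes were named by the deposited symbols, and all 52 transporters were found in that annotation. Of 63 symbols of these families in the lists used, 11 were not analysed here. Ratios used a pseudocount of 1 FPKM and a minimum mean FPKM of 1. Intervals are exact Clopper-Pearson intervals at 95% of the share of counts in one library, and the script was tested on simulated data. Intervals cover counting error only, because each group held 1 library. They also take each counted read as an independent molecule, which was not checked. No count model was run, since 1 library per group leaves no estimate of spread. Every transporter with a mean FPKM of at least 1 was named. Lower ones were named where both libraries had more than 3 counts and the interval lay past 2-fold, or for a few carriers listed in the rule, and some others after their values were seen, and other genes by the 5 largest differences per list, of which 1 is not reported here. The rule for members uses symbols only, but it and the lists were chosen with earlier results of these data known, and the neuronal marker list was added after values were seen. Analyses used Python 3.11.15, pandas 2.3.3, numpy 2.4.6, SciPy 1.17.1 and Matplotlib 3.10.9. Promoters came from RefSeq. Alternatives were another pseudocount, plain ratios, CPM, centring, removal of GC or exon length trends, other filters and a 1.5-fold threshold.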

Additional observations from a re-analysis of the deposited data

How the results depend on the processing

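The count of transporters at least 2-fold higher, 0 as reported, became 1 with a pseudocount of 0.1, 1 with the plain ratio and 1 with the plain ratio after removal of the GC trend, the last chosen after seeing the data. That gene was Slc7a5 each time. At a threshold of 1.5-fold the count was 3. The median log2 ratio of the transporters, 0.10 as reported, became −0.022 after centring, −0.052 with the exon length trend removed and 0.028 without the filter on low levels. Among the 23 transporters the sign of the ratio changed for 8 after centring, 8 with the exon length trend removed, 2 with the GC trend removed (Slc38a2 and Slc7a2), 1 on CPM, and 0 on the plain ratio or with a pseudocount of 0.1. At 1.5-fold, centring left Slc7a5 as the only higher and Slc1a5 as the only lower transporter. The cause was not tested. No paired analysis was possible because each group held 1 library, and for the same reason no replicate could be left out. Counts as low as those of Slc38a3 or Slc6a19 allow no firm fold.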

Other observations

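Several transporters best known from the nervous system were measured in these progenitor cultures. Slc6a17 was at 6.93 and 7.40 FPKM and Slc1a6 at 6.23 and 5.85 in the TGFBR3-labelled and vector-labelled libraries. Of a list of 9 neuronal markers, added after these values were seen, 5 were in the tables. Of these, Snap25 and Syt1 were at or near 0, and Stmn2 was at 0.04 and 0.35 FPKM, while Tubb3 was at 33.2 and 36.5. Schwann and glial markers summed to 0.70 and 0.49 FPKM.

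Slc3a2 stood at 1.16 (1.13 to 1.19) times the FPKM of Slc6a8 in the TGFBR3-labelled library and 0.791 (0.772 to 0.810) times in the vector-labelled library, so the order of these genes, next after Slc38a10, differed between the libraries. Slc7a11 stood at 0.347 and 0.358 of the FPKM of Slc7a5, a ratio between genes of 42.1% and 56.5% GC.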
